A study of Mus musculus with 3 samples.

Results

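The 9 genes followed here, Tcf7, Lef1, Klf2, S1pr1, Ccr7, Il7r, Bcl2, Dapl1 and Nsg2, are genes of resting and memory T cells. They were taken by symbol, each matched 1 of the 55401 listed genes, and no measured value entered the rule. They were, however, chosen with earlier results of these data known. Their counts were followed in the CD8, CD4, regulatory and gamma-delta T cells and the natural killer (NK) cells of melanoma grafts in mice of 3 ages. The graft was YUMM1.7, an established mouse melanoma line. Each mouse received 500000 of its cells subcutaneously, and the tumours were collected 18 days later. Live cells with CD45, the surface protein of leukocytes, were sorted with an antibody to its CD45.2 form and sequenced with a PIP-seq kit, which barcodes single cells in shaken droplets and reads the 3′ ends of transcripts. The groups were mice of 4, 12 and 20 months, 7 of each age, with 1 library per age. All groups carried the same graft, and the labels name no further treatment. Strain and sex are not given in the sources used here, nor is it stated how the 7 mice of an age were combined. With 1 library per age no difference between ages has a replicate check, and no p-value is given.

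Levels are in CPM, the counts of a gene summed over the cells of a class in 1 library and scaled to a class total of 1000000. They are given in the order 4, 12 and 20 months. Intervals are exact 95% intervals and cover counting error only. The libraries held 14393, 14653 and 14684 cells with totals of 110371225, 127850782 and 119873564 counts, and 41097 cells were kept. Pairs of libraries shared 3, 4 and 2 barcodes. CD8 T-like cells numbered 3412, 4632 and 5086, NK-like cells 2238, 2073 and 1587, regulatory T-like cells 733, 630 and 488, and gamma-delta T-like cells 64, 77 and 85. CD4 T-like cells other than regulatory ones numbered only 13, 82 and 26. The gamma-delta class was a single sub-cluster of T-like cells, led by Il17a and Cd163l1. The CD4 class was likewise a single sub-cluster, led by Ccl1 and Csf2. An unnamed sub-cluster led by Klra7 and Klra6, with Trdc among its leading genes, is in none of the classes. Values of the gamma-delta and CD4 classes therefore describe these sub-clusters only. The classes carried their lineage genes. Cd8a stood at 992, 878 and 796 CPM in CD8 T-like cells, Foxp3 at 236, 196 and 167 in regulatory, Trdc at 1536 to 2506 in gamma-delta and Ncr1 at 748, 725 and 665 in NK-like cells. The CD4 T-like cells held Cd4 at 198, 372 and 218 CPM but also Cd8a at 368, 114 and 162. The label names melanoma as the cell type, whereas the sorted cells were leukocytes by their markers, and the 5 melanoma markers together stood at 3.50 to 4.22 CPM in CD8 T-like cells. Counts from other cells were plain: monocyte/macrophage-like cells, which do not make CD8, held Cd8a at 61.6, 99.7 and 85.7 CPM. Whether these came from free RNA or from 2 cells under 1 barcode was not tested, and both are called free RNA here. The level of each gene in those cells is therefore given beside the others as the level that free RNA can reach, except for genes these cells make themselves.

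Tcf7 and Lef1 encode related DNA-binding proteins of the Wnt pathway that keep naive and memory T cells from turning into effector cells. Klf2 encodes a transcription factor that holds T cells at rest and switches on S1pr1, the receptor for sphingosine 1-phosphate by which lymphocytes leave tissues, while Ccr7 encodes the receptor that leads them into lymph nodes. Il7r encodes the chain of the interleukin-7 receptor through which survival signals arrive, and Bcl2 a protein that blocks cell death. FOXO1, a factor active in cells that receive few growth signals, is known to act on Klf2, Ccr7 and Il7r. In tumours these genes are known from a stem-like or resting fraction of T cells, as against the effector and exhausted fractions. Dapl1 encodes a small protein related to the death-associated protein Dap, and Nsg2 a vesicle protein first described in neurons.

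On GRCm38, in GENCODE M21, 4 of the genes lie on the plus strand: Lef1 (chromosome 3, 131110471 to 131224356), Klf2 (chromosome 8, 72319033 to 72321656), Dapl1 (chromosome 2, 59484653 to 59505020) and Nsg2 (chromosome 11, 32000463 to 32059202). The other 5 lie on the minus strand: Tcf7 (chromosome 11, 52252371 to 52283014), S1pr1 (chromosome 3, 115710433 to 115715072), Ccr7 (chromosome 11, 99144196 to 99155077), Il7r (chromosome 15, 9505788 to 9530176) and Bcl2 (chromosome 1, 106538178 to 106714274). An antisense gene overlaps an exon of Lef1 (Gm43352) and of Bcl2 (D630008O14Rik). Whether counting used strand is not given in the sources used here, so counts of these pairs could not be told apart.

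RefSeq promoter windows, from 250 bases before a start to 50 after it, on GRCm38.p6, were at hand for 7 of the 9 genes, in 12 windows. They were searched on both strands for GTAAACA, the core bound by FOXO factors, and for CTTTGAA or CTTTGAT, the core bound by TCF/LEF factors, which do not overlap each other. GTAAACA was in the windows of 2 of the 7, Dapl1 and Tcf7, against 4.05% of 27025 genes, and the match of Tcf7 lies just past one of its starts. The TCF/LEF letters were in none of the 7, against 9.88% of genes. The window of Klf2 holds CTAAATTTAG, a box of the kind bound by MEF2 factors, and its letters were chosen after the window had been read. These exact letters were in 0.0481% of genes (13 of 27025). Other spellings of such a box were not counted, so the share of genes with a box of this kind is not known. The 2 stretches below lie before the start on the plus strand and touch no annotated exon. They are shown because no other window of the 9 genes held a match to these exact letters before the start. Among the 5 lymphocyte classes Dapl1 was the gene most limited to CD8 T-like cells. It was also the one of the 9 past 1.5-fold at 20 against 4 months in the Gzmm/Dapl1 sub-cluster described further on. Klf2 was not limited to T-like cells. No link between these levels and the letters was tested. Capitals mark the motif.
Dapl1, chr2:59484432-59484551: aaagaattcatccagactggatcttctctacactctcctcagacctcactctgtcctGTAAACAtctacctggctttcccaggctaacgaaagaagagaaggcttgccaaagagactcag
Klf2, chr8:72318889-72319008: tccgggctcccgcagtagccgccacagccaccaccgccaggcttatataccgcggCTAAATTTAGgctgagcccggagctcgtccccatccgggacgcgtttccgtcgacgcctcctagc
A match is a description of letters, and no binding was measured.

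Of the transcription factors, Tcf7 was higher in NK-like than in CD8 T-like cells. It stood at 53.4 (50.2 to 56.9), 51.2 (48.0 to 54.6) and 51.2 (47.3 to 55.3) CPM there, and at 29.98 (27.8 to 32.3), 36.2 (34.2 to 38.2) and 40.5 (38.4 to 42.7) in CD8 T-like cells. The NK-like level was above the CD8 T-like one in all 3 libraries, with intervals apart. Gamma-delta T-like cells had 40.2, 50.9 and 53.4 and CD4 T-like cells 42.5, 39.8 and 44.7 CPM, from at most 28 counts in a library, and their intervals overlapped both. Regulatory T-like cells had 8.08, 8.86 and 11.6, close to the 6.37, 8.09 and 7.01 of monocyte/macrophage-like cells. Lef1, its relative, had another order. It was at 41.0 (38.4 to 43.8), 53.6 (51.2 to 56.0) and 64.5 (61.9 to 67.2) in CD8 T-like cells, at 45.7, 44.1 and 40.1 in regulatory and at 31.3, 28.3 and 34.0 in NK-like cells, against 6.39, 10.4 and 10.5 in monocyte/macrophage-like cells. So regulatory T-like cells held Lef1 well above the free RNA level while their Tcf7 was near it. CD8 and regulatory T-like cells had overlapping intervals for Lef1 at 4 months, and CD8 was the higher at 12 and 20 months.

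Klf2 had similar levels in CD8 T-like, NK-like and regulatory T-like cells. It stood at 38.5, 42.5 and 51.6 CPM in CD8 T-like, 36.9, 39.6 and 32.9 in NK-like and 35.8, 49.6 and 28.5 in regulatory T-like cells. Gamma-delta T-like cells had 25.4, 35.2 and 68.7. CD4 T-like cells, with 1, 18 and 0 counts, lay below these 4 classes in each library, with intervals apart in 1 of the 3. Monocyte/macrophage-like cells had 50.8, 79.9 and 47.8 and plasmacytoid dendritic-like cells 183, 196 and 119.9, so the lymphocyte classes did not as a whole stand above other cells. Its target S1pr1 was a T cell gene here. It stood at 55.9 (52.8 to 59.1), 48.7 (46.4 to 51.1) and 63.7 (61.1 to 66.4) CPM in CD8 T-like cells, at 33.8, 37.2 and 42.0 in gamma-delta and at 32.5, 30.8 and 33.7 in regulatory T-like cells. NK-like cells had 6.22, 8.48 and 9.75, beside 4.48 to 8.56 in monocyte/macrophage-like cells. S1pr5, another receptor for the same lipid, stood at 3.81 to 4.501 CPM in NK-like cells.

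Ccr7 was carried above all by mature dendritic-like cells, at 2946, 2743 and 2469 CPM, which use the same receptor to reach lymph nodes. Among lymphocytes it was at 57.1 (54.0 to 60.3), 112 (109 to 116) and 114 (111 to 118) in CD8 T-like cells and at 69.2, 70.1 and 51.7 in regulatory T-like cells. NK-like cells, at 15.9, 28.2 and 24.7, were close to the 14.0, 25.2 and 17.4 of monocyte/macrophage-like cells. The class of CD4 T-like cells gave 99.2, 81.3 and 414 CPM, the last from 74 counts in 26 cells. Ccr7 is also 1 of 87 genes that differed the same way between 2 libraries in each of 4 large classes. It was higher at 12 than at 4 months in monocyte/macrophage-like cells as well. With their level subtracted, the log2 ratio to 4 months in CD8 T-like cells was 1.02 at 12 and 1.17 at 20 months, beside 0.98 and 1.00 without.

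Among the 5 lymphocyte classes Il7r was highest in gamma-delta T-like cells, at 286 (239 to 338), 372 (321 to 429) and 334 (286 to 387) CPM, above CD8, regulatory and NK-like cells in all 3 libraries with intervals apart. Regulatory T-like cells held 129, 103 and 124 and CD8 T-like cells 91.7 (87.7 to 95.7), 82.8 (79.8 to 85.8) and 118 (115 to 122). NK-like cells, at 9.54, 14.5 and 23.4, lay beside the 12.4, 15.4 and 19.99 of monocyte/macrophage-like cells. Mature dendritic-like cells had 185, 133 and 153 and plasmacytoid dendritic-like cells 200.5, 256 and 353 CPM, so Il7r was not a T cell gene alone. Il2rg, the chain that Il7r pairs with, was at 535 to 581 CPM in CD8 T-like and 538 to 637 in NK-like cells.

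Bcl2 and Il7r had opposite orders in NK-like and regulatory T-like cells. Bcl2 stood at 187 (181 to 193), 166 (160.0 to 172) and 185 (178 to 193) CPM in NK-like cells, 129.7, 118 and 192 in CD8 T-like and 226, 155 and 129.8 in gamma-delta T-like cells. Regulatory T-like cells had 30.7, 28.0 and 34.8, below the 44.5, 35.4 and 40.7 of monocyte/macrophage-like cells in all 3 libraries. NK-like cells thus held Bcl2 and Tcf7 but little S1pr1, Ccr7 or Il7r, and regulatory T-like cells held Il7r, Ccr7, Lef1 and S1pr1 but little Bcl2 or Tcf7.

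Among the 5 lymphocyte classes Dapl1 was close to a CD8 gene. It stood at 63.2 (59.9 to 66.5), 77.6 (74.8 to 80.6) and 71.4 (68.6 to 74.2) CPM in CD8 T-like cells. Regulatory T-like cells had 5.54, 8.26 and 5.23 and NK-like cells 4.18, 6.38 and 4.84, beside 3.99, 6.15 and 4.71 in monocyte/macrophage-like cells. CD4 and gamma-delta T-like cells gave at most 10 counts in a library, which in CD4 T-like cells reached 17.3 CPM at 12 months. T-like cells outside these classes held it too: the unnamed sub-cluster led by Klra7 and Klra6, which also carried Trdc among its leading genes, had 102, 79.1 and 67.7 CPM. Outside the lymphocytes the highest value was 58.7 CPM, from 21 counts, in the fibroblast-like cells of the 12-month library. Dapl1 was also unevenly spread among CD8 T-like cells. With each cell thinned to 3000 counts, 6.68%, 8.64% and 8.12% of them had a count, and those that did had 2.29, 2.48 and 2.34 counts on average, against 1.13 to 1.16 for Tcf7 and 1.17 to 1.18 for Lef1. Tcf7 and Lef1 stood at lower levels than Dapl1 in these cells in each library. The average is not given here for the other members, so it is not shown to be particular to Dapl1. Nsg2 stood at 20.7 (18.8 to 22.6), 28.4 (26.7 to 30.2) and 35.5 (33.6 to 37.6) CPM in CD8 T-like cells and at 70.8, 48.4 and 61.5 in CD4 T-like cells, the latter from 5, 28 and 11 counts. In regulatory, gamma-delta and NK-like cells it was at or below 9.78 CPM.

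**Figure D1:**
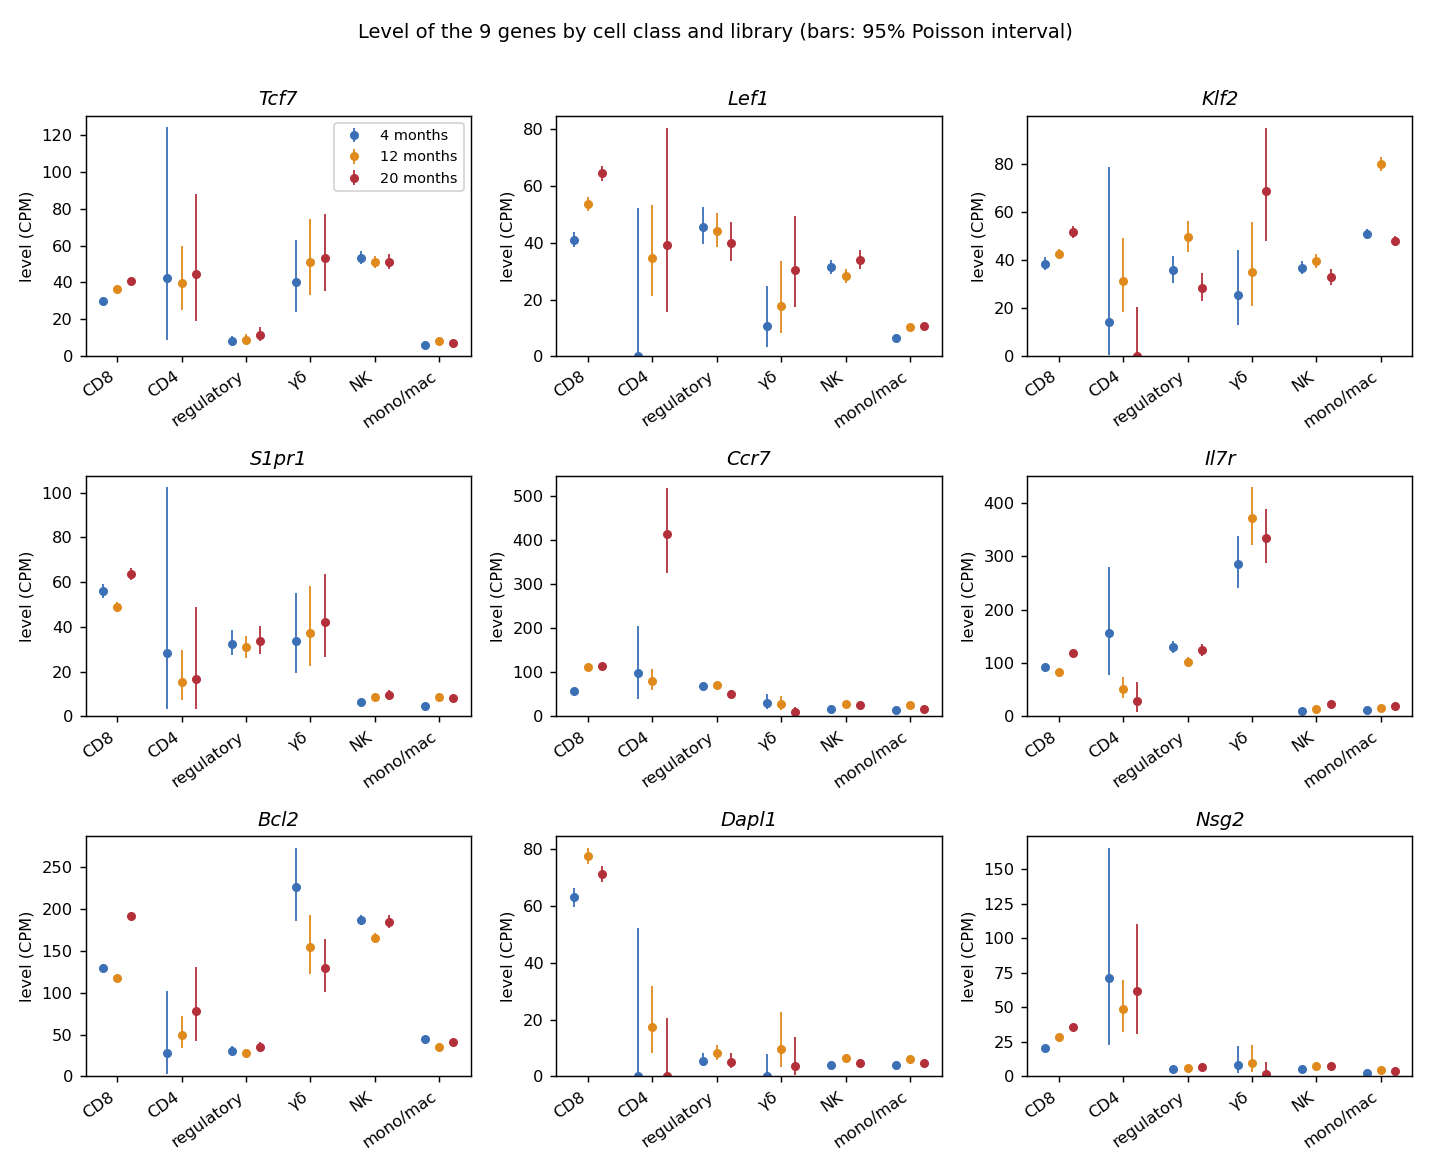
Level of each of the 9 genes in CPM (vertical axis, from 0) in 5 lymphocyte classes and in monocyte/macrophage-like cells (horizontal axis), 1 point per library coloured by age, with 95% Poisson intervals. Outside CD8 T-like cells Dapl1 is at 17.3 CPM or less in the classes shown. Il7r is highest in gamma-delta T-like cells of the classes shown, and Bcl2 and Tcf7 are high in NK-like cells. Intervals are wide in the CD4 and gamma-delta classes.

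With age, the 9 genes were mostly higher in CD8 T-like cells. A log2 ratio compares CPM of 2 libraries, and a gene is past the fold where it is at least 1.5-fold apart. From 4 to 20 months the ratio was 1.00 (0.91 to 1.10) for Ccr7, 0.78 (0.63 to 0.94) for Nsg2 and 0.65 (0.54 to 0.76) for Lef1, the 3 genes past the fold. The homing receptor Ccr7 went from 57.1 to 114 CPM. Below the fold lay Bcl2 at 0.57 (0.51 to 0.63), Tcf7 at 0.43 (0.30 to 0.57), Klf2 at 0.42 (0.30 to 0.54), Il7r at 0.37 (0.29 to 0.44), S1pr1 at 0.19 (0.089 to 0.29) and Dapl1 at 0.18 (0.082 to 0.27). Of the 6 genes with a mean of at least 50 CPM, 2 were past the fold upward, Ccr7 and Lef1, where 1.93% of 2850 genes of that level were, and none was lower, beside 1.47%. The median ratio of the 9 was 0.43, beside −0.11 over all genes of at least 50 CPM. All 9 intervals lay above 0, as did those of 18.2% of 10704 genes of at least 5 CPM. With the unnamed Klra7/Klra6 sub-cluster counted as CD8, an alternative chosen after seeing the data, Nsg2 was at 0.045 and Lef1 at 0.40, both below the fold, and Ccr7 at 0.69. Over 13 alternatives Ccr7 was past the fold in 11, Lef1 in 9 and Nsg2 in 8. The median of the 9 was −0.094 at a coarser clustering, which left the cells with most Dapl1 unnamed, and 0.92 with each library clustered on its own. In the latter, the highest Dapl1 level of a named CD8 T-like sub-cluster was 77.9, 270.5 and 204.5 CPM. In the main clustering it was 289.9, 279.6 and 141.7. Whether the 4-month cells with most Dapl1 were left out of the class there was not tested. NK markers went the other way with age in CD8 T-like cells: the 12 together stood at 1369, 931 and 643 CPM, none of them at 0. This was not particular to CD8 T-like cells. The same sum was lower with age in the other lymphocyte classes and in monocyte/macrophage-like cells, at 547, 426 and 243 CPM in the latter. The 12 hold Prf1, also listed here as an effector gene, and Gzma, which like Ccr7 is among the 87 genes that differed between libraries. The part of these markers in the ratios was not tested.

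At 12 months the picture was partial. Ccr7 alone was past the fold, at 0.98 (0.89 to 1.07), 1 of the 6 where 1.16% of genes were higher. Nsg2 (0.46), Lef1 (0.39), Dapl1 (0.30), Tcf7 (0.27) and Klf2 (0.14) lay above 0. The survival genes Il7r (−0.15) and Bcl2 (−0.14) and the exit receptor S1pr1 (−0.20) lay below it. No member was lower past the fold, beside 0.421% of genes. Between 12 and 20 months Bcl2 was past the fold, at 0.71 (0.65 to 0.77), where 0.246% of genes were higher and 0.632% lower, followed by Il7r at 0.51 (0.45 to 0.58). These comparisons share libraries, so they are set side by side and not read as independent. Ccr7 was at one level in the 12- and 20-month libraries, while Bcl2, Il7r and S1pr1 were highest in the 20-month library and lowest in the 12-month one.

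The CD8 T-like cells of the 3 libraries were not made up alike. The clustering, which used none of the 9 genes, gave a sub-cluster led by Gzmm, a granzyme gene, and by Dapl1, Ccr7, Bcl2, Nsg2 and S1pr1 among its 10 leading genes over other T-like cells. It was picked out for its Dapl1 level, the highest of the larger CD8 T-like sub-clusters, so its high Dapl1 is by choice. It held 12.3% (11.2 to 13.4), 19.3% (18.2 to 20.4) and 36.3% (34.9 to 37.6) of CD8 T-like cells, from 418, 893 and 1844 cells. Gzmm itself differed with age, at 27.3, 57.9 and 165 CPM in CD8 T-like cells, and took part in the clustering. The clustering was repeated without the sub-cluster's 10 leading genes, of which the members had been left out before. The CD8 T-like sub-cluster with the highest Dapl1 level then held 17.5%, 25.7% and 42.6%. How far its cells were the same ones was not measured. The shares depended on the clustering. With the 87 library-specific genes kept they were 4.93%, 3.14% and 35.3%. With each library clustered on its own, the named sub-cluster with the highest Dapl1 level held 14.1%, 22.6% and 21.2%, and whether these are the same cells in each library is not known. At 4 and 12 months the largest CD8 T-like sub-cluster was another one, led by Ly6a2 and Anxa1, with 1229 and 1834 cells.

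In the Gzmm/Dapl1 sub-cluster all 9 genes stood above the rest of the CD8 T-like cells in each library, which describes how the cells group and is no test. Ccr7 was at 277, 389.9 and 259.5 CPM, against 26.4, 44.2 and 34.4 in the remaining cells. Bcl2 was at 332, 299 and 375 against 101, 73.2 and 91.6, Tcf7 at 94.8, 79.4 and 71.9 against 20.9, 25.6 and 23.2, and Nsg2 at 90.8, 96.3 and 71.3 against 10.9, 11.7 and 15.8. Il7r differed less at 4 and 12 months, at 141, 143 and 194 against 84.8, 68.0 and 76.4. The sub-cluster supplied 59.5%, 68.4% and 80.6% of the Ccr7 counts of CD8 T-like cells, and 56.2%, 70.9% and 70.5% of those of Dapl1. For Bcl2 the share was 31.3% at 4 and 69.3% at 20 months. For Il7r the shares were 18.8%, 34.0% and 58.3%. At 20 months it supplied 56.3% (Lef1) to 80.6% (Ccr7) of the counts of each of the 9.

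**Figure D2:**
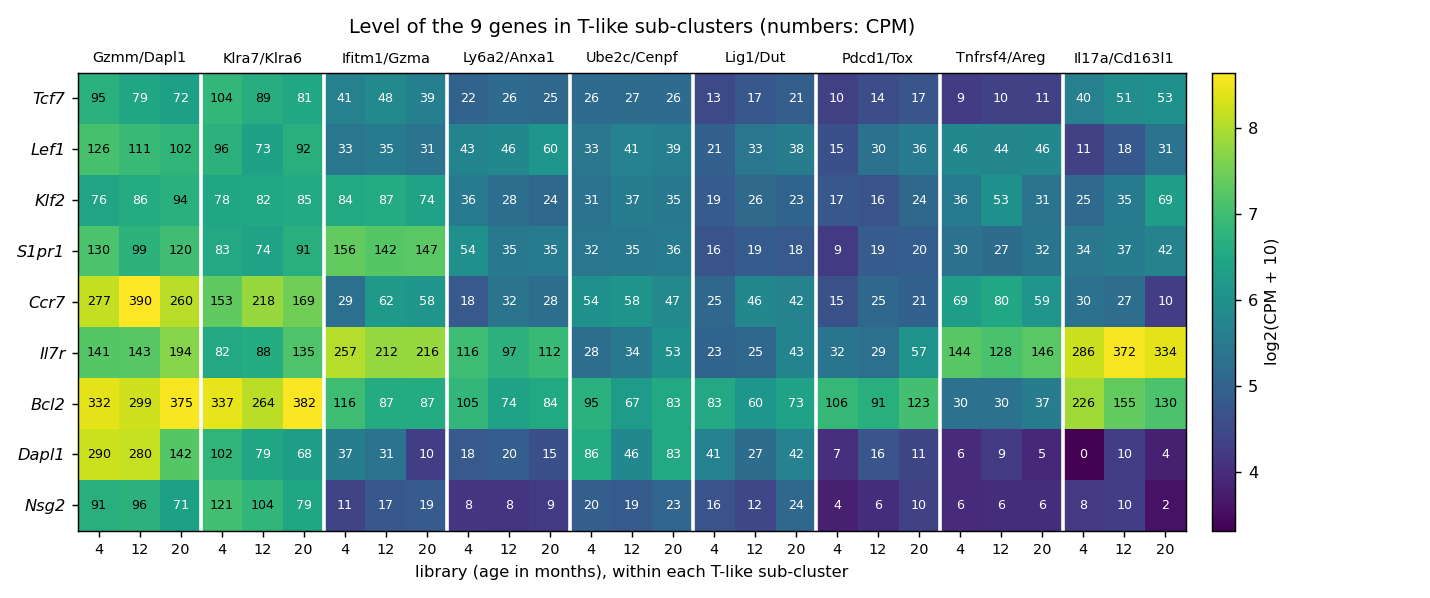
Level in CPM (number in each field) of the 9 genes in the larger T-like sub-clusters, named by 2 leading genes, with the 3 libraries side by side; colour shows log2(CPM + 10). The Gzmm/Dapl1 and Klra7/Klra6 sub-clusters are high for all 9 genes, Ifitm1/Gzma for Il7r and S1pr1, Il17a/Cd163l1 for Il7r and Bcl2, and Pdcd1/Tox is low for all but Bcl2.

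Outside this sub-cluster the genes did not share a direction with age, and 4 had the other sign. The median ratio of the 9 genes in the remaining CD8 T-like cells was 0.050 at 20 months, beside −0.066 over all genes, and −0.065 at 12 months. Lef1 (0.58, 0.43 to 0.74), Nsg2 (0.54, 0.29 to 0.79) and Ccr7 (0.39, 0.22 to 0.55) stayed above 0 at 20 months. S1pr1 (−0.47, −0.61 to −0.33), Klf2 (−0.24, −0.39 to −0.076), Il7r (−0.15, −0.25 to −0.052) and Bcl2 (−0.15, −0.24 to −0.058) were below 0, opposite to their sign in all CD8 T-like cells. None of the 9 was past the fold at 20 months, where 1.21% of 2885 genes were higher and 1.01% lower. At 12 months Ccr7 was, at 0.75 (0.60 to 0.90), with 1.14% of genes higher and 0.451% lower, though with a mean under 50 CPM.

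Within the Gzmm/Dapl1 sub-cluster 1 gene stood out. Dapl1 was at 289.9 (270.1 to 311), 279.6 (267 to 292) and 142 (135 to 148) CPM, the 4- and 12-month libraries with overlapping intervals and the 20-month one below both. Its log2 ratio was −1.03 (−1.15 to −0.91) at 20 against 4 months and −0.98 (−1.07 to −0.89) at 20 against 12 months. It was the only one of the 9 past the fold at 20 against 4 months, where 1.16% of 2681 genes were lower and 2.05% higher. In the clustering without leading genes, the CD8 T-like sub-cluster picked for the highest Dapl1 level had it at 273.7, 265.8 and 140.0 CPM. With each library clustered on its own, the highest level in a named CD8 T-like sub-cluster was 77.9, 270.5 and 204.5 CPM, lowest in the 4-month library. With library-specific genes kept, the sub-cluster with the highest Dapl1 level had 216, 123 and 128 CPM, so there the 12-month library lay with the 20-month one. At the coarser resolution it had 137.9, 84.8 and 6.32 CPM, from 28, 43 and 44 cells. The share of cells of the Gzmm/Dapl1 sub-cluster with a Dapl1 count after thinning was 30.1% (25.8 to 34.8), 28.4% (25.5 to 31.5) and 16.3% (14.7 to 18.1). Il7r at 0.46 (0.31 to 0.62) and Klf2 at 0.30 (0.089 to 0.52) were higher at 20 months. Tcf7 at −0.40 (−0.60 to −0.19), Nsg2 at −0.35 (−0.55 to −0.14) and Lef1 at −0.30 (−0.48 to −0.13) were lower, all below the fold, and the median of the 9 was −0.12, beside −0.097 over all genes. Ccr7 was highest in the 12-month library here, at 277, 389.9 and 259.5 CPM. Between 12 and 20 months Ccr7 was past the fold downward as well, at −0.59 (−0.66 to −0.51), where 0.559% of genes were lower and as many higher. None of the 9 was past the fold at 12 against 4 months, where 1.38% were higher and 1.01% lower, and the median was −0.052.

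**Figure D3:**
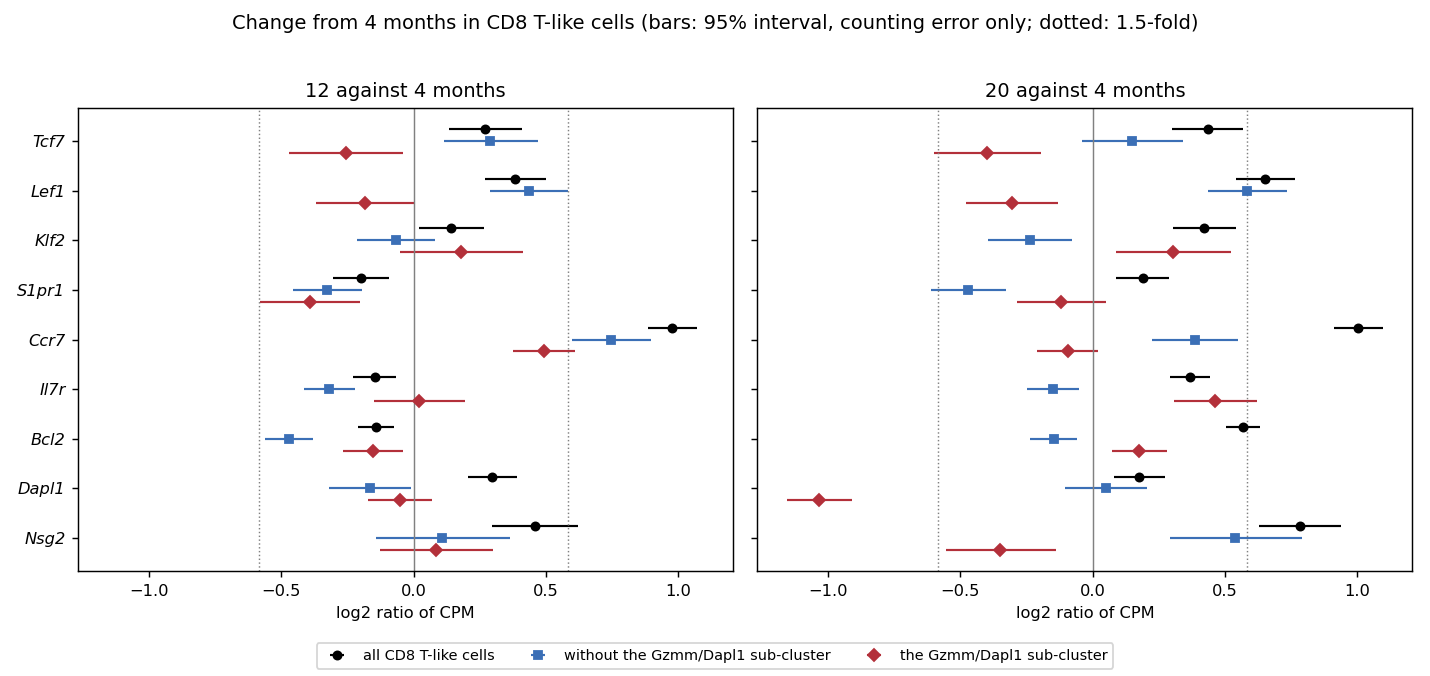
Log2 ratio of CPM (horizontal axis) of each gene at 12 against 4 months (left) and 20 against 4 months (right) in all CD8 T-like cells (circles), those outside the Gzmm/Dapl1 sub-cluster (squares) and those inside it (diamonds), with 95% intervals of counting error; dotted lines mark 1.5-fold. At 20 months all 9 circles lie above 0, from 0.18 to 1.00, while squares and diamonds lie on both sides, with Dapl1 at −1.03 inside the sub-cluster.

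Other T-like sub-clusters carried parts of the set. A sub-cluster led by Klra7 and Klra6, receptor genes shared with NK cells, was left unnamed (664, 925 and 326 cells) and held all 9 genes at high levels. Bcl2 was at 337, 264 and 382 CPM there, Nsg2 at 121, 104 and 79.4, Tcf7 at 104, 89.1 and 80.8 and Lef1 at 96.5, 72.9 and 92.4. Nsg2 and Dapl1 were lower there at 20 than at 4 months, at −0.60 (−0.86 to −0.35) and −0.60 (−0.88 to −0.32), and Il7r was higher, at 0.72 (0.49 to 0.94). A CD8 T-like sub-cluster led by Ifitm1 and Gzma (491, 348 and 178 cells) had Il7r at 257, 212 and 216 and S1pr1 at 156, 142 and 147 CPM, higher than in the Gzmm/Dapl1 sub-cluster in each library, with Ccr7 at only 28.6, 62.1 and 58.1 and Nsg2 at 11.3, 17.3 and 18.7. In the sub-cluster of dividing cells led by Ube2c and Cenpf, Dapl1 stood at 86.3, 46.0 and 83.5 CPM while Il7r was at 28.1, 34.1 and 53.4.

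The sub-cluster led by Pdcd1 and Tox, genes of exhausted T cells (750, 556 and 969 cells), held 8 of the 9 genes at 56.9 CPM or less, with Bcl2 at 106, 91.4 and 123 CPM. With leading genes taken over all other cells this sub-cluster would be unnamed. There all 9 had a ratio above 0 at 20 against 4 months, with every interval above 0, as were those of 12.5% of 10507 genes of at least 5 CPM. Lef1 was at 14.5, 29.6 and 36.0 CPM, with a ratio of 1.31 (0.92 to 1.72). S1pr1 was at 8.78, 18.6 and 20.3, with 1.21 (0.69 to 1.74), Il7r at 32.1, 29.1 and 56.9, with 0.83 (0.55 to 1.11), and Tcf7 at 10.2, 14.0 and 16.6, with 0.70 (0.19 to 1.22). The levels of the other 5 likewise lay highest at 12 or 20 months. Levels of these 4 genes were higher at 20 than at 4 months in monocyte/macrophage-like cells too. There Lef1 was at 6.39, 10.4 and 10.5, S1pr1 from 4.48 to 8.56, Il7r at 12.4, 15.4 and 19.99 and Tcf7 at 6.37, 8.09 and 7.01 CPM. The part of free RNA in these ratios was not tested.

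In NK-like cells the 2 genes of at least 50 CPM were close to 0 in ratio: Tcf7 was at −0.061 (−0.21 to 0.083) and Bcl2 at −0.013 (−0.089 to 0.063) at 20 against 4 months, where 0.976% of 2765 genes were higher past the fold and 0.289% lower. At 12 months they were at −0.061 (−0.19 to 0.069) and −0.17 (−0.24 to −0.10), beside 1.27% and 0.145%. Of the 7 genes under 50 CPM, 5 were higher at 12 months, with Ccr7 at 0.83 (0.62 to 1.04), Dapl1 at 0.61 (0.18 to 1.04), Il7r at 0.60 (0.32 to 0.88), Nsg2 at 0.58 (0.19 to 0.97) and S1pr1 at 0.45 (0.093 to 0.81). Lef1 was at −0.15 (−0.32 to 0.023) and Klf2 at 0.10 (−0.049 to 0.26), and the median of the 9 was 0.45. With the monocyte/macrophage-like level subtracted that median was −0.013. At 20 months Il7r (1.29, 1.02 to 1.57), S1pr1 (0.65, 0.27 to 1.03) and Ccr7 (0.64, 0.41 to 0.88) were past the fold at levels near those of monocyte/macrophage-like cells, whose own levels were higher at 20 than at 4 months. In regulatory T-like cells none was past the fold at either age, where 1.65% of 3100 genes were higher and 1.19% lower at 20 months, and 1.58% and 0.935% at 12 months. Klf2 was at 35.8, 49.6 and 28.5 CPM there, highest at 12 months as in monocyte/macrophage-like cells, and Ccr7 was at −0.42 (−0.70 to −0.15). In gamma-delta T-like cells Bcl2 was lower at both ages, with −0.55 (−0.99 to −0.12) at 12 and −0.80 (−1.26 to −0.35) at 20 months. At 20 months it was past the fold, where 9.65% of 3150 genes were lower and 6.22% higher. At 12 months neither Bcl2 nor Il7r was, where 5.75% were lower and 6.16% higher. Klf2 was higher at 20 months, at 1.44 (0.46 to 2.51) from 12 and 36 counts, and so was Lef1, at 1.53 (0.015 to 3.33) from 5 and 16. Ccr7 was lower, at −1.63 (−3.46 to −0.079) from 14 and 5 counts, and Nsg2 was at −2.15 (−7.77 to 1.19) from 4 and 1. The 7 cell division genes of at least 50 CPM were all lower there past the fold as well, so these 64 and 85 cells differed in other ways too. In CD4 T-like cells only Ccr7 (2.06, 0.95 to 3.42) and Il7r (−2.48, −4.36 to −0.84) had intervals that left out 0 at 20 against 4 months, where 18.6% of 3026 genes were higher past the fold and 23.5% lower, and 13 cells stand behind the 4-month values.

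Over all T-like cells, named or not, the names of sub-clusters do not enter the ratios. Which clusters counted as T-like does, and these ratios were not recomputed under the alternatives. At 20 months Ccr7 was at 0.65 (0.58 to 0.73), Lef1 at 0.37 (0.27 to 0.46), Bcl2 at 0.36 (0.31 to 0.41) and Il7r at 0.30 (0.23 to 0.36). Klf2, S1pr1, Nsg2 and Dapl1 were between 0.12 and 0.24, with intervals above 0, and Tcf7 at 0.10 (−0.0072 to 0.21). The median was 0.24, beside −0.11 over all genes, and only Ccr7 was past the fold of the 6 genes of at least 50 CPM, where 1.36% of 2873 genes were higher and 1.15% lower. Intervals lay above 0 for 8 of the 9 and for 18.3% of 10784 genes of at least 5 CPM. At 12 months Ccr7 was past the fold as well, at 0.76 (0.69 to 0.83), where 1.04% were higher and 0.418% lower, and the median was 0.16.

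In single CD8 T-like cells the 9 genes were found together. With cells thinned to 3000 counts, from median depths of 5266, 6104.5 and 5910.5, a count of at least 3 of the 9 was found in 13.7% (12.6 to 14.9), 15.7% (14.7 to 16.8) and 23.4% (22.2 to 24.5) of them. In NK-like cells it was 3.75%, 4.63% and 5.23%, in regulatory T-like cells 4.91%, 5.71% and 5.12% and in monocyte/macrophage-like cells 0.569%, 1.16% and 0.880%. Within the Gzmm/Dapl1 sub-cluster it was 53.8%, 51.8% and 52.0%, and outside it 8.08%, 7.11% and 7.09%. The 20-month share was above the others in CD8 T-like cells as a whole, whereas inside and outside the sub-cluster the intervals of the 3 libraries overlapped. At least 1 of the 9 was found in 62.4%, 64.6% and 69.5% of CD8 T-like cells and in 62.3%, 64.5% and 66.0% of NK-like cells, which differ far less by that measure.

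For each of the 36 pairs of genes, CD8 T-like cells with a count of one more often had a count of the other in all 3 libraries, and in 27 pairs the intervals were apart in all 3. Ccr7 with Dapl1 was among the closest. Among cells with and without a Dapl1 count, Ccr7 was found in 35.1% against 7.38% at 4 months, 43.2% against 13.9% at 12 and 37.3% against 15.6% at 20 months. Given Ccr7, Nsg2 was found in 18.7% against 3.68%, 17.2% against 4.55% and 17.2% against 6.85%. Klf2 went with its target S1pr1, which was found in 33.0% against 12.3%, 25.5% against 11.2% and 26.9% against 14.6%. The link of Il7r with Lef1 was among the weaker ones, with 25.2% against 21.8%, 22.5% against 20.4% and 33.8% against 25.6% for Il7r given Lef1. Inside the Gzmm/Dapl1 sub-cluster 17 of the 36 pairs were higher in all 3 libraries and 1 had intervals apart. Outside it the numbers were 26 and 6, and Klf2 with S1pr1 gave 34.1% against 10.2%, 21.2% against 8.98% and 18.1% against 8.42%. In NK-like cells they were 6 and 0, and in regulatory T-like cells 7 and 0. The part of free RNA and of depth before thinning in these shares was not tested.

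**Figure D4:**
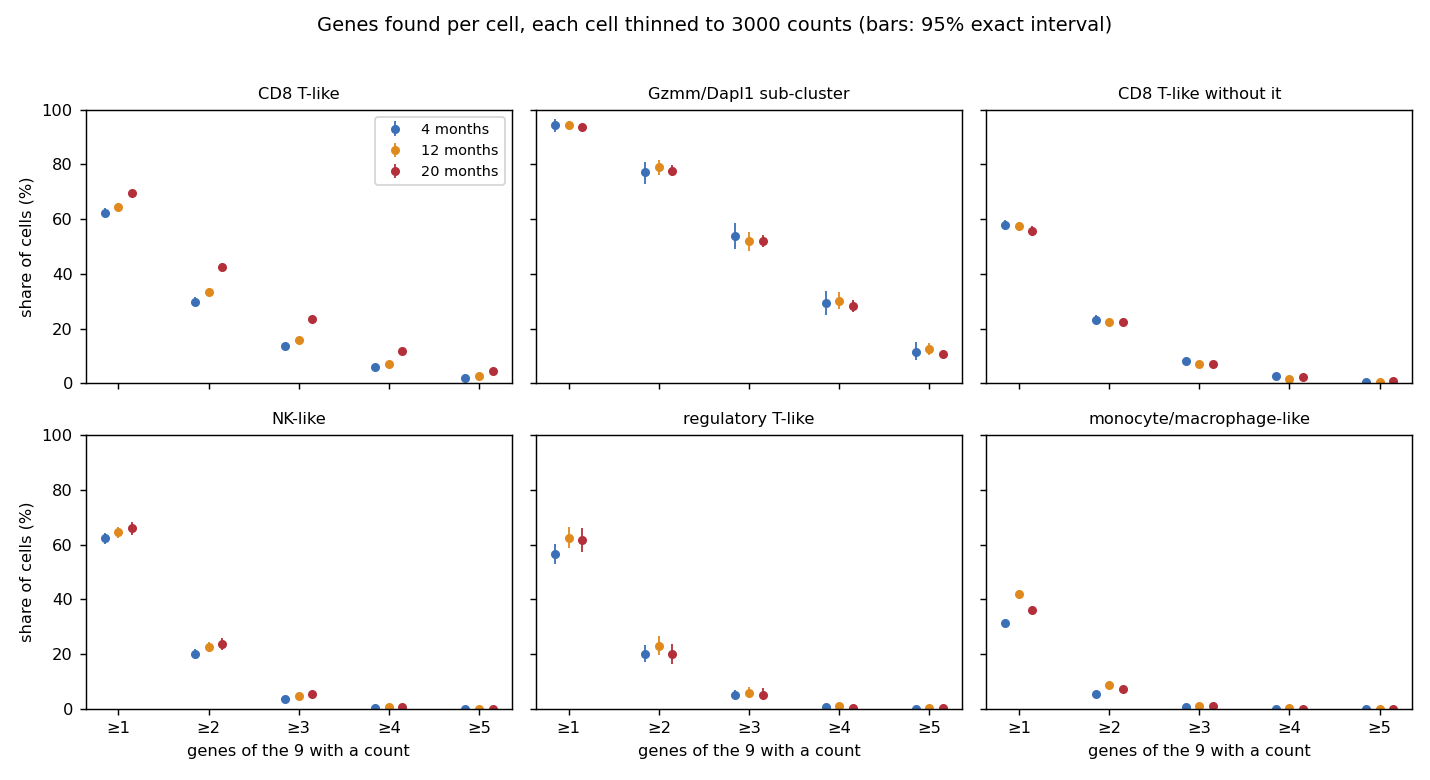
Share of cells in percent (vertical axis) with a count of at least 1 to at least 5 of the 9 genes (horizontal axis), each cell thinned to 3000 counts, by class and library with exact 95% intervals. In CD8 T-like cells the share with at least 3 is 13.7%, 15.7% and 23.4% at 4, 12 and 20 months; inside the Gzmm/Dapl1 sub-cluster the 3 libraries overlap.

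CD8 T-like cells with at least 3 of the 9 genes (467, 729 and 1188 cells) were set against those with none (1283, 1640 and 1549) for lists of other genes. Of 20 further resting and memory genes 9 reached 50 CPM, and 4 of these were at least 1.5-fold higher in all 3 libraries, as were 1.92% of 2818 genes. Satb1, a chromatin organiser of T cells, was at 88.1, 87.5 and 121 CPM against 23.0, 28.2 and 41.2, with ratios of 1.94, 1.63 and 1.55. Foxp1, a factor of quiescence, had 1.09, 1.03 and 1.25. Ets1 of the same list had 0.035, −0.0064 and −0.072. Of 16 effector and exhaustion genes 11 reached 50 CPM and 8 were lower in all 3 libraries, beside 4.33% of genes. Pdcd1, encoding the checkpoint receptor PD-1, had −2.37, −1.98 and −2.34, Havcr2, encoding TIM-3, −1.33, −1.35 and −1.38, Ifng −1.62, −1.76 and −1.92 and Gzmb −0.81, −0.99 and −0.98. Ctla4 (−0.30, −0.27 and −0.34) and Tbx21 (−0.19, −0.53 and −0.33) were not among them. Of the cell division genes 5 of 6 were lower, and of 9 early response genes, which stimulation and handling of cells switch on, none was past the fold in all 3. Cd8a was lower too, at −0.76, −0.58 and −0.72. Cells with 3 genes are by choice cells with more of these transcripts, and the comparison is a description.

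Partners and relatives of the 9 genes mostly stayed below the fold with age in CD8 T-like cells. Of 32 listed, 13 reached 50 CPM, and 1 of these, Cxcr4, was past the fold upward at 20 against 4 months, beside 1.93% of 2850 genes, at 35.4, 57.7 and 66.0 CPM and a ratio of 0.90 (0.78 to 1.02). Cxcr4 encodes a chemokine receptor. Il2rb, the other receptor chain for interleukin-15 and -2, was at −0.36 (−0.40 to −0.33), S1pr4 at −0.56 (−0.67 to −0.46) and Klf6 at −0.43 (−0.47 to −0.39). The death and survival genes Mcl1 (−0.13, −0.23 to −0.033), Bax (0.19, 0.080 to 0.30) and Bak1 (−0.29, −0.39 to −0.19) lay below the fold, beside 0.57 for Bcl2. Of the resting and memory list 9 reached 50 CPM, and 1, Satb1, was past the fold upward, beside the same 1.93% (41.8, 48.7 and 68.5 CPM, ratio 0.71, 0.60 to 0.82). Of the effector list 4 of 11 were past the fold downward, Ifng (−1.07, −1.12 to −1.02), Lag3 (−0.85, −0.93 to −0.77), Gzmb (−0.67, −0.69 to −0.66) and Pdcd1 (−0.67, −0.72 to −0.63), beside 1.47% of all genes. Ifng and Klf6, like Ccr7, are among the 87 genes that differed the same way between 2 libraries in each of 4 large classes. The lists' medians were 0.21 for the resting list, −0.27 for the effector list and −0.087 for the partners.

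Across the 15 points given by 5 lymphocyte classes and 3 libraries, the gene whose level was most like that of each of the 9 among 4797 genes was Tmsb4x for Tcf7 (Pearson's r 0.91), Hscb for Lef1 (0.92), Bfar for Klf2 (0.91), Acp5 for S1pr1 (0.95) and Tspan3 for Ccr7 (0.85). It was Gm26740 for Il7r (0.94), Pdlim1 for Bcl2 (0.96), Ly6c2 for Dapl1 (0.96) and Ntrk3 for Nsg2 (0.91). None of the 9 was nearest to another of them. Among themselves the largest values were 0.79 for Ccr7 with Nsg2, 0.77 for Il7r with S1pr1 and 0.72 for Bcl2 with Tcf7, while Lef1 with Tcf7 gave −0.32. Points of 1 class share cells of like depth, points of 1 library share its free RNA, and the CD4 and gamma-delta points rest on few counts, so these values are descriptions.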

How the data were processed

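Single-cell RNA was measured in 1 library per age. The authors deposited raw counts per gene and cell. The submitters' processing notes name STAR 2.7.10a and GRCm38 without their roles. Whether counts are molecules or reads, and whether strand was used, is not given in the sources used here. The members and gene lists were chosen with earlier results of these data known.

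A cell was kept from 500 counts up unless mitochondrial counts passed 15%, the highest 6% of doublet scores in each library were removed, and 8 erythroid cells were left out. Clustering (scanpy 1.11.5, leidenalg 0.10.2, 2000 variable genes, 30 components, resolution 1) left out the 9 members, their programme list and 87 library-specific genes, and the libraries were clustered together. Classes were named from fixed markers. A cluster led by markers of another class stayed unnamed, and for T-like sub-clusters the leading genes were taken over cells that are not T-like, a choice made after the clusters had been seen. All 9 members and the genes of the fixed lists could be named. The values of 1 listed gene are not reported here. A gene entered a background share where its mean was at least 50 CPM.

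Counts were summed per class and library. Intervals of levels, ratios and shares are exact 95% intervals (scipy 1.17.1), for counting error only, and for single cells each cell was thinned to 3000 counts. There was no replicate, so nothing was tested. The interval and fold rule was tested on simulated data. These counts were drawn with counting error only, with 200 genes changed, part of them 2-fold and the rest by less. Of 2833 genes in CD8 T-like cells, the rule called 100% of those changed 2-fold and 0% of the unchanged ones. Of 3146 genes in gamma-delta T-like cells, it called 93% of those changed 2-fold and 5.13% of the unchanged ones. The share called among the smaller changes is not given. Alternatives covered doublets, resolution, clustering, naming, scaling, background, weighting, thinning and thresholds.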

Additional observations from a re-analysis of the deposited data

Results flagged for a closer look

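In 3 cases a gene differed in opposite directions with age in 2 groups of cells, each with an interval that left out 0. From 4 to 20 months Ccr7 had a log2 ratio of 1.00 in CD8 T-like cells and of −1.63 in gamma-delta T-like cells, the latter from 14 and 5 counts. In NK-like cells Ccr7 had 0.64, again beside −1.63 in gamma-delta T-like cells. Nsg2 had 0.78 in CD8 T-like cells and −0.60 in the unnamed T-like sub-cluster led by Klra7 and Klra6. With 1 library per age these differences were not tested.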

How the results depend on the processing

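The median log2 ratio of the 9 genes in CD8 T-like cells depended on which cells the class held. At 20 against 4 months it was 0.43, and it was −0.094 at resolution 0.6, 0.92 with each library clustered on its own, 0.55 with median-ratio scaling, 0.57 with the monocyte/macrophage-like level subtracted and 0.050 without the sub-cluster with the highest Dapl1 level. Among alternatives chosen after seeing the data it was 0.68 with library-specific genes kept, 0.30 with leading genes taken over all other cells and 0.25 with the Klra7/Klra6 sub-cluster counted as CD8. At 12 against 4 months it was 0.27, and the same alternatives gave 0.80 for libraries clustered alone, −0.065 without the highest-Dapl1 sub-cluster, −0.19, 0.079 and 0.13. The last alternatives differ in which cells are counted, and the cause was otherwise not tested. Subtracting the monocyte/macrophage-like level took the median at 12 months from 0.018 to −0.33 in regulatory T-like and from 0.45 to −0.013 in NK-like cells. With leading genes taken over all other cells 9 members, not 5, were higher in CD8 than in regulatory T-like cells in all 3 libraries. Thinned to 1500 counts, 1 member, not 4, had a larger share of CD8 T-like cells at 12 than at 4 months with intervals apart. The share of all genes past the fold in CD8 T-like cells at 12 months was 1.70% higher for genes of at least 20 CPM. For 2-fold it was 0.140% higher and 0.0702% lower at 12 months, and 0.211% in each direction at 20 months. Tcf7, Lef1, Ccr7 and Nsg2 kept their sign in CD8 T-like cells at 20 months in 13 of 13 alternatives, from 0.0037 to 0.87 for Tcf7, 0.40 to 1.10 for Lef1, 0.39 to 2.05 for Ccr7 and 0.045 to 1.57 for Nsg2. Each of these highest values came from the libraries clustered on their own. There the highest Dapl1 level of a named CD8 T-like sub-cluster at 4 months was only 77.9 CPM. Of these genes, Ccr7 was past the fold in 11, Lef1 in 9 and Nsg2 in 8 of the 13. The other members changed sign in some alternatives. Klf2 kept it in 10 of 12, S1pr1 in 10 of 13 and Il7r, Bcl2 and Dapl1 in 11 of 13 each. Their lowest values were −0.39 for Klf2, −0.54 for S1pr1, −0.17 for Il7r, −0.15 for Bcl2 and −0.25 for Dapl1.

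In CD4 T-like cells ratios changed sign often. Tcf7 at 12 months kept its sign in 4 of 10 alternatives (−0.29 to 1.53) and at 20 months in 8 of 10, Ccr7 at 12 months in 7 of 10, and Nsg2 in 9 of 10 at 12 and 8 of 10 at 20 months. Among ratios past the fold, Bcl2 at 12 months was −0.28 with no gene left out and −0.82 with classes from lineage gene counts, and at 20 months S1pr1 was 0.013 with library-specific genes kept, Ccr7 −0.95 and Bcl2 −0.83 with classes from lineage gene counts. No paired analysis was possible because each age has 1 library. Depth limits the CD4 and gamma-delta classes most, and genes below the level in monocyte/macrophage-like cells could not be told from free RNA.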
